A study of Mus musculus with 9 samples.

Results

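The regions described here are stretches of accessible chromatin at gene ends that were called only in macrophages newly derived from monocytes. The peaks of 3 deposited lists were merged where they overlapped by at least 1 bp, which gave 36843 regions. A merged region was kept if it held peaks of the monocyte-derived list only and lay within 1 kb of either end of a RefSeq protein-coding gene (build GRCm38). This left 3548 regions, the members, out of 13658 regions of any class within 1 kb of a gene end. Members were thus chosen by presence in the monocyte-derived list and absence from the other 2 lists, so those calls are a description of how the members were picked and are given without a test.

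The lists come from ATAC-seq, in which the Tn5 transposase cuts and tags open DNA, on sorted peritoneal macrophages of mice. The 3 groups had 3 samples each. Monocyte-derived macrophages were taken on day 4 after 2 ml of thioglycollate, an irritant that draws blood monocytes into the peritoneal cavity. The tissue-converted group had received 2 ml of thioglycollate too and then a tamoxifen diet lasting 8 weeks. No such group treatment is given for the tissue-resident macrophages. All mice were Cx3cr1CreERT2-IRES-EYFP/+ Rosa26-stopfl-tdTomato/+, so that a Cre driven by Cx3cr1, active under tamoxifen, marks cells that express this gene or did so while the drug was given. All mice also received 5 µg of IL-4 with 25 µg of an antibody to IL-4, starting 4 days before harvest and repeated every other day. Cell origin, thioglycollate interval and tamoxifen differ together between the groups, and their parts cannot be told apart.

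Open chromatin at the start of a gene marks the promoter, where RNA polymerase and general factors assemble. Many promoters of broadly used genes lie in stretches rich in G+C and CpG and are open in most cell types, whereas promoters of inducible and lineage genes are more often opened by factors of that lineage, such as PU.1, C/EBP, AP-1 and IRF proteins in macrophages. Monocytes that enter the inflamed peritoneum turn into macrophages within days, and with IL-4 they take on genes of alternative activation, such as Arg1. Resident large peritoneal macrophages instead depend on Gata6 and carry Timd4.

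The sequences below show what such a region looks like at genes that the results turn on. They were chosen after their values were seen, to show inflammatory and myeloid promoters (Itgax to Lyz2), lysosomal promoters (Atp6v0b and Mcoln1) and promoters of widely used genes (Arpc2 to Rps18). Each is the portion of a member that lies before a RefSeq transcription start (GRCm38.p6) and outside the annotated span of every protein-coding gene, read 5′ to 3′ on the gene's strand. Capitals mark matches to any of the 12 short motifs that are spelled out with the promoter results. Lyz2 has no match. At Mcoln1, 2 separate members reach into the bases before the start.
Itgax, chr7:128129300-128129513, plus strand: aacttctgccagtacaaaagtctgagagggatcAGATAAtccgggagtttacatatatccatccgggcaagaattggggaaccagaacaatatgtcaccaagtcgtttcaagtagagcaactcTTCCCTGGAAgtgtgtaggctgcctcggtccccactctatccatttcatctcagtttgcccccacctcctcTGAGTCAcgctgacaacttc
Spp1, chr5:104434964-104435088, plus strand: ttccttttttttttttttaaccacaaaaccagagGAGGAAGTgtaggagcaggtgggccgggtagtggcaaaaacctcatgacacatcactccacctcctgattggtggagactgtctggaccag
Ptgs2, chr1:150099839-150100030, plus strand: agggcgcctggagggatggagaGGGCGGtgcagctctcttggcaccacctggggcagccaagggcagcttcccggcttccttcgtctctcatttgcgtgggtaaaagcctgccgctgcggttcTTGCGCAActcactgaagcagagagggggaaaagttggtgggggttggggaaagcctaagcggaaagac
Clec7a, chr6:129472786-129472938, minus strand: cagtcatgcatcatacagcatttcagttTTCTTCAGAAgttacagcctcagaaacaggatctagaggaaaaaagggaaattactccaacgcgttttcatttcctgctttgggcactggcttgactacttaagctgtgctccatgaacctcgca
Trem2, chr17:48346314-48346400, plus strand: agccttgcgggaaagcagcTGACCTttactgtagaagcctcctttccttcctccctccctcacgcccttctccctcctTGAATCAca
Lyz2, chr10:117282273-117282363, minus strand: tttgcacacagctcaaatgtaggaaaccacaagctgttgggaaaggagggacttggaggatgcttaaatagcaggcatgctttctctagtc
Atp6v0b, chr4:117887334-117887438, minus strand: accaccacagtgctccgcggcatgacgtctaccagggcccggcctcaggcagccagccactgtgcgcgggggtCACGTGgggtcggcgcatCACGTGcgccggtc
Mcoln1, chr8:3500289-3500413, plus strand: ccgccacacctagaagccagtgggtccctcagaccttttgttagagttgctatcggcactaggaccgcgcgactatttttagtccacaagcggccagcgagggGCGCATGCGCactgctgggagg
Mcoln1, chr8:3500439-3500518, plus strand: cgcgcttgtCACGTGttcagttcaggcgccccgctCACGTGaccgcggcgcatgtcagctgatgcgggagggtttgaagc
Arpc2, chr1:74236314-74236489, plus strand: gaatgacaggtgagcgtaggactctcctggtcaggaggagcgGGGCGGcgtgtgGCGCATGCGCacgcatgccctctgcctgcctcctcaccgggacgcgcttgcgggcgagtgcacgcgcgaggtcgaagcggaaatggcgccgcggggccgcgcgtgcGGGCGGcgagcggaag
Arpc3, chr5:122391764-122391877, plus strand: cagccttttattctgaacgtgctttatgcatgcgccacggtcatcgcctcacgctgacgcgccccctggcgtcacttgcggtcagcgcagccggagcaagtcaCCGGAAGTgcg
Nr1h2, chr7:44553969-44554063, minus strand: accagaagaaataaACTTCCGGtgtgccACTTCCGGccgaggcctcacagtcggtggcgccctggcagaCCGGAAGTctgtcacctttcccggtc
Rps18, chr17:33955666-33955778, minus strand: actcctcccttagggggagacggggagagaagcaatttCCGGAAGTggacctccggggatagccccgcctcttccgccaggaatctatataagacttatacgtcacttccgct

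The monocyte-derived list was the longest, with 33694 peaks, against 15552 in the converted list and 24348 in the resident list. Each list merges the 3 samples of its group and holds no read counts. There is therefore no spread between replicates, no depth and no p-value between groups, and intervals given here are 95% Wilson or Newcombe intervals over regions, which cover counting error only. Absence from a list can mean closed chromatin or a signal below the call, and depth was not available to separate them. The monocyte-derived list had regions in the body or within 1 kb of the ends of 5 of 6 macrophage marker genes (all but Fcgr1), against 2 in the converted and 4 in the resident list. Of a short set of defining genes, 3 of T cells (Cd3e, Lck and Zap70), 2 of mast cells and 2 of mesothelial cells had 0 regions in every list, and the neutrophil gene S100a8 had a region in the converted and resident lists only. In the longer lists of such genes, described with the other gene lists, 5 of 14 B cell genes (Bach2, Blnk, Cd79a, Cr2 and Ebf1) had a tissue-list region at an end and 3 a monocyte-derived one. The part of other cells in the results was not tested.

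Members made up 26.0% of the 13658 regions near gene ends (25.2 to 26.7), whereas 11009 of 23185 regions away from gene ends, 47.5%, were monocyte-derived only. These shares rest on the calls that chose the members and are given without a test. Near gene ends the most frequent class was instead the 6041 regions of all 3 lists (44.2%), followed by the members, by 2225 regions of the monocyte-derived and resident lists, and by 1026 resident-only regions. Members' share of the near-end regions ranged over chromosomes between 20.2% on chromosome 12 and 32.5% on chromosome 11. List length bears on the count: with every list reduced to its 15552 peaks of smallest p-value, 1489 regions met the rule, or 14.1% of near-end regions, and 1073 of the 3548 members (30.2%) were among the regions still called monocyte-derived only.

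**Figure D1:**
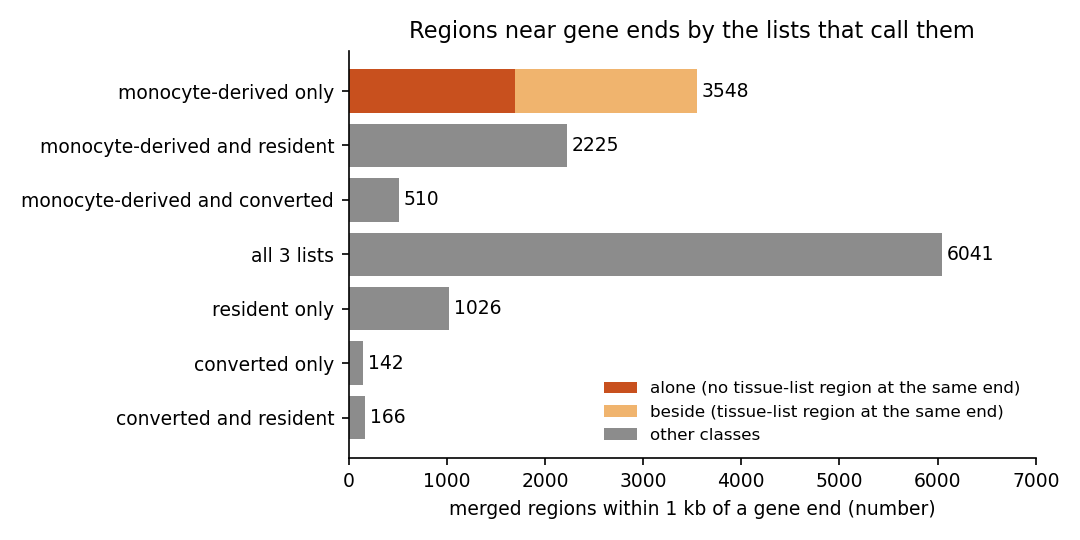
Number of merged regions within 1 kb of a gene end (x axis) in each class of calling lists (y axis); the bar of the members is split into 1698 that are alone at their gene end and 1850 beside a tissue-list region at the same end. The 3548 members are outnumbered by the 6041 regions of all 3 lists.

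Like other regions of a single list, members were narrow, and within the monocyte-derived list they were weakly called. Their median width was 125 bp (quartiles 100 and 150, highest 700), against 75 bp for resident-only and converted-only regions and 300 bp (250 and 400) for regions of all 3 lists. The last are unions of at least 3 peaks each, whereas 5.02% of members hold more than 1 peak, so merging itself widens them. Members' median peak-caller p-value was 4.13e-06 (quartiles 3.00e-06 and 6.91e-06), against a median of 3.36e-06 over the whole monocyte-derived list. It lay below the 1e-5 carried in the names of the lists, and 230 members lay slightly above that value, up to 1.01e-05. Resident-only regions had a median resident p-value of 8.27e-06, against 6.37e-06 over the whole resident list. The resident list runs up to 1.50e-05, with 5476 of its 24348 peaks above 1e-5, and the monocyte-derived list up to 1.01e-05. The p-values of members and resident-only regions are therefore not compared with each other. Only 34 members (0.958%) stood at 1e-12, the smallest value in the files, against 3626 regions of all 3 lists (60.02%), for which the smallest monocyte-derived p-value was taken. In all, 87.9% of members had a p-value above 1e-6, against 31.6% of regions of all 3 lists. The p-values fell on only 46 distinct values, and 328 members shared the commonest. These values partly chose the members and are given as a description. For single members below, "called at" gives this deposited peak-caller p-value.

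**Figure D2:**
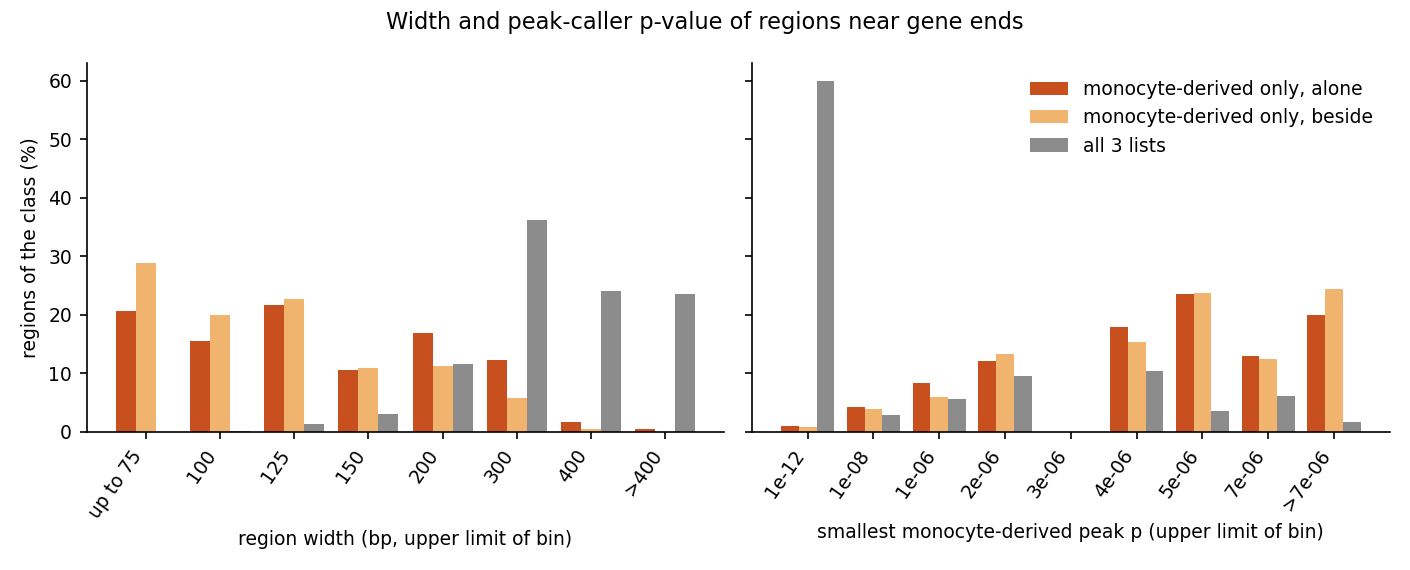
Share of regions (y axis, %) by width in bp (left) and by the smallest monocyte-derived peak p-value (right), with the upper limit of each bin on the x axis, for members alone at a gene end, members beside a tissue-list region, and regions of all 3 lists. Both kinds of members sit in the narrow bins and at p-values above 1e-6, while 60.02% of the regions of all 3 lists sit at 1e-12.

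The 124 members at 901 to 1000 bp from a gene end had a median width of 125 bp and a median p-value of 4.13e-06, and the 98 monocyte-derived-only regions at 1001 to 1100 bp had 125 bp and 4.12e-06. The 138 members that lay at most 25 bp from a tissue-list peak without overlapping it had a median of 125 bp and 4.10e-06. The 67 regions in which a monocyte-derived and a tissue-list peak overlapped by at most 25 bp, which the rule leaves out, had 175 bp and 4.13e-06.

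The members fell into 2 kinds by what else was open at the same gene end. Beside 1850 of them (52.1%, 50.5 to 53.8) a region called in a tissue list lay within 1 kb of the same end, and 1698 (47.9%) were alone. Resident-only regions were likewise often beside a region of another list at the same end (606 regions, 59.1%, 56.0 to 62.0). In 1755 of the 1850 (94.9%) the neighbour was a region shared by the monocyte-derived and a tissue list, so that the same gene end held a peak of both, and in 95 it was a tissue-only region. Members beside a tissue region lay a median of 150 bp from the nearest tissue-list peak (quartiles 75 and 325 bp), and members alone a median of 22.1 kb (8.83 and 48.1 kb). In total 1117 members (31.5%) lay within 200 bp of a tissue-list peak and 1225 (34.5%) more than 10 kb away. Joining peaks up to 200 bp apart before classifying left 2107 monocyte-derived-only regions, of which 29.5% were beside a tissue region. Both kinds had a median width of 125 bp and a median p-value of 4.13e-06, and 31.6% of those alone and 29.0% of those beside were kept with lists of equal length.

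The position of the 2 kinds relative to gene starts follows in part from the split and is given without a test: a member beside shares its gene end with a tissue-list region that it may not overlap, and such regions lie mostly across starts. Strand was known for 2857 members (80.5%), through RefSeq promoter windows. Of these, 2662 (93.2%, 92.2 to 94.0) were near a transcription start and 195 (6.83%) near a 3′ end only, against 98.6% and 1.44% of regions of all 3 lists. A 3′ end without a start nearby was the place of 12% of members alone and 2.14% of members beside. Among members with a start within 1 kb, 46.5% of those alone (575 of 1236) lay across the start itself, against 11.2% of those beside (169 of 1506) and 69.8% of regions of all 3 lists. Members beside lay mostly downstream of the start (61.0%, 919 regions), with their centres at a median of 227 bp into the gene. Members alone were centred at a median of 0 bp, and regions of all 3 lists at -12 bp.

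**Figure D3:**
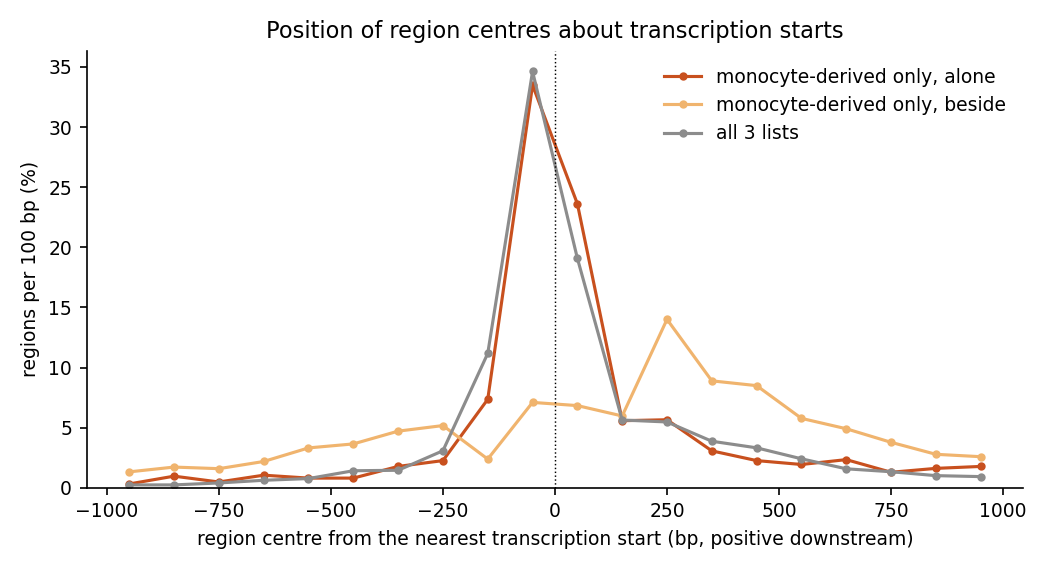
Share of regions per 100 bp (y axis, %) against the distance of the region's centre from the nearest transcription start (x axis, bp, positive into the gene) for members alone, members beside a tissue-list region, and regions of all 3 lists. Members alone peak over the start like the shared regions, with 33.5% in the 100 bp before it, whereas members beside peak 200 to 300 bp into the gene, with 14.0%.

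The members of smallest p-value, all at 1e-12, were ranked by width. The widest with a known strand lay 457 bp from the 3′ end of Tnfrsf8, which encodes the TNF receptor family member CD30. It spanned 525 bp (chr4:145267589-145268113), and its nearest tissue-list peaks were 9.30 kb away in the converted and 9.35 kb in the resident list. At Lgmn, the gene of the lysosomal protease legumain, a 350 bp member lay 357 bp from the 3′ end, 31.6 kb from a converted and 12 kb from a resident peak. Havcr2, which encodes the inhibitory receptor TIM-3, had a 375 bp member across its start, 7.05 kb from a converted and 6.42 kb from a resident peak. The amino acid transporter subunit gene Slc3a2 (CD98 heavy chain) likewise had 375 bp across its start. Starts were also covered by members at Ddx17, an RNA helicase gene (400 bp), at Supt4a, whose product is a transcription elongation factor subunit (350 bp), at Psmd12, a proteasome subunit gene (275 bp), and at Siah1a, a ubiquitin ligase gene (275 bp). The members of Ddx17 and Siah1a were isolated, with the nearest tissue-list peaks 112 kb and 122 kb away. Of the 20 members ranked first, 14 had no tissue region at their end.

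Of the other members at this smallest p-value, some sat next to tissue-list peaks and some did not. Pfkp, which encodes the platelet phosphofructokinase of glycolysis, had a 300 bp member 4 bp from its start, 125 bp from a converted and 150 bp from a resident peak. At Jmy, whose product nucleates actin, a 300 bp member across the start was 100 bp from a resident peak but 144 kb from a converted one. The following 3 genes had no tissue-list region at the end with the member. At Kdm5c, which encodes an X-linked H3K4 demethylase, a 300 bp member (chrX:152232714-152233013) lay 185 bp from the start, and a second of 175 bp, called at 4.87e-06, lay across it. The nearest resident peak was 60 kb and the nearest converted peak 94.2 kb away from either member. Smad7, an inhibitor of TGF-beta signalling, and Mapre2, a gene for a microtubule end-binding protein, had the other wide members, of 425 and 700 bp, with strand unknown.

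Members were spread over many genes, most with a single one. Of 21631 protein-coding genes, 3444 (15.9%) had a member at an end, 2773 of them 1, 596 of them 2, and 75 of them 3 or more. In 1617 genes (7.48%) at least 1 member was alone at its end, and 1428 genes (6.60%) had monocyte-derived regions and no tissue-list region at either end. A monocyte-derived region of any class lay at an end of 9173 genes (42.4%). For the gene lists below this share ranged between 0% (eosinophil and mast cell genes) and 96.0% (unfolded protein and chaperone genes), with 81.0% for the toll-like receptor list. Its part in the shares of listed genes with a member was not tested. Since 640 members (18%) lay near ends of more than 1 gene, a member can count for several genes. The highest number, 5, was reached by Alyref2 and by the neighbours Ndufa13 and Tssk6, which share the same 5 regions. Ndufa13 encodes a subunit of respiratory complex I, Tssk6 a testis kinase and Alyref2 an mRNA export factor. At Alyref2 the members ran between 790 bp upstream and 261 bp downstream of the start at p-values of 2.00e-07 to 4.13e-06, with no tissue-list peak within 55 kb. Members numbering 4 each were found at Lsr, Hspbap1, Slc49a4, Slc4a7, Hmga1, Ncaph2 and Polr3e, and those of Hspbap1 and Slc49a4 are the same regions at a shared promoter. Hmga1, the gene of an architectural chromatin protein, had its 4 members within 786 bp of its start and 8.78 kb or more from tissue-list peaks.

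A member lay at 15 of 38 genes for cytokines, chemokines and related mediators (39.5%, 25.6 to 55.3), against 15.9% of all genes. Of the 15, 13 had it alone (34.2% of the 38 genes, against 7.48% of all genes). None of the 38 had a region of all 3 lists, against 27.1% of all genes. The 13 were Ccl2, Ccl3, Ccl4, Ccl6, Ccl9, Il10, Il18, Il23a, Osm, Ptgs2, Spp1, Tgfb1 and Vegfa, and at Tnf and Thbs1 a tissue region was beside the member. The 2 chemokine genes Ccl3 and Ccl4 count the same region. Most of these calls were near the limit: Ccl2 (225 bp across one end of the gene) was called at 8.42e-06, Il10 at 1.01e-05, and Ptgs2, the gene of the prostaglandin synthase COX-2, at 6.91e-06 over 275 bp across its start. Spp1, which encodes osteopontin, had 125 bp called at 3.02e-06, 24.3 kb from any tissue-list peak. With lists of equal length 3 of 38 genes had such a region (7.89%), close to the 7.54% of all genes, and 2 of these 3 were among the 15. That setting shortens the resident list as well as the monocyte-derived one, and the cause of the lower count was not tested.

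Genes of monocytes and of the small peritoneal macrophages that arise from them had members at 7 of 24 (29.2%, 14.9 to 49.2). Genes of large peritoneal macrophages had them at 1 of 29 (3.45%, 0.611 to 17.2). Both intervals hold the 15.9% of all genes. The first group comprised Cd14, an LPS co-receptor, Itgax (CD11c), Lyz2 (lysozyme), the interferon-induced Ifitm3 and Ifitm6 and Cx3cr1, each alone, and Fn1 (fibronectin) beside. Lyz2 had a 125 bp member across its start (called at 3.36e-06), and next to it one of 75 bp, 5.95 kb from the nearest tissue-list peaks. Itgax had a 325 bp member 13 bp before its start (called at 3.55e-06), 39.8 kb from a resident and 78.2 kb from a converted peak. The single gene of the second group was Laptm5, a lysosomal membrane protein of blood cells. Cx3cr1 had a 200 bp member 781 bp inside its 3′ end, and 1 allele of this gene carries the Cre insertion in every group. With lists of equal length the 2 groups had 1 of 24 and 2 of 29 genes, against 7.54% of all genes, an order opposite to that of the full lists.

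Among macrophage core and lineage genes, 9 of 28 (32.1%, 17.9 to 50.7, against 15.9% of all genes) had a member. As many had a region of all 3 lists, against 27.1% of all genes. In lists of equal length 5 of 28 had one (17.9%, against 7.54% of all genes), and 4 of these 5 were among the 9. Mertk, a receptor for the uptake of dying cells, had a 125 bp member called at 7.44e-09 at 52 bp from its start, 400 bp from a resident peak and 119 kb from a converted one. Itgam, which encodes CD11b, had a member 849 bp into the gene (called at 3.77e-07) and no tissue-list peak within 12 kb. Runx1, a blood lineage factor, had 2 at its start with p-values of 4.13e-06 and 1.01e-05. Trem2, a lipid-sensing receptor, and Zeb2, a transcription factor that maintains macrophage identity, had members across their starts at 5.24e-06 and 1.69e-06.

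Genes of IL-4 signalling and alternative activation had members at 10 of 35 (28.6%, 16.3 to 45.1, against 15.9% of all genes), 5 of them alone (14.3%, against 7.48%). In lists of equal length 6 of 35 had one (17.1%, against 7.54% of all genes), and 3 of these 6 were among the 10. Arg1, the arginase that marks alternative activation, had 2 members, of 150 bp (called at 1.88e-06) and 75 bp (7.89e-06), at 819 and 644 bp outside one end of the gene. Strand is unknown for this gene, and its nearest tissue-list peaks were 12.8 kb away, although the gene also had 1 region of the monocyte-derived and resident lists within 1 kb of an end. Myc had 3 members of 125 bp around one end at 4.13e-06 to 6.73e-06, 14.0 kb or more from tissue-list peaks. Batf3, a factor of the AP-1 family that was also on the list of dendritic cell genes, had 2 at its start. The lectin gene Mgl2 and the chemokine gene Ccl24 had 1 each, alone. Il4ra, the IL-4 receptor, and Irf4 instead had a region of all 3 lists, and Stat6, the main transducer of IL-4, had a region of the monocyte-derived and resident lists and 2 regions called in tissue lists only.

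Of 17 genes for MHC class II and costimulation, 7 had a member (41.2%, 21.6 to 64.0, against 15.9% of all genes) and 2 a region of all 3 lists (11.8%, against 27.1%). H2-Ab1, a class II beta chain, had 150 bp at 14 bp outside one end (called at 3.00e-06), 5.25 kb from a resident and 28.5 kb from a converted peak. Cd40 had 175 bp across one end at the same p-value, with resident peaks 6.15 kb and converted peaks 176 kb away. At Cd74, the class II invariant chain, and at H2-Eb1 the member was beside a region of the monocyte-derived and resident lists. With lists of equal length 4 of 17 genes had a member (23.5%, against 7.54% of all genes), all 4 of them among the 7.

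Among 41 genes for AP-1, CREB and immediate early factors 16 had a member (39.0%, 25.7 to 54.3, against 15.9% of all genes). Of the 41, 6 had one alone (14.6%, against 7.48% of all genes) and 24 had a region of all 3 lists (58.5%, against 27.1%). With lists of equal length 10 of 41 had a member (24.4%, against 7.54% of all genes), and 9 of these 10 were among the 16. Dusp1, a phosphatase that ends MAP kinase signals, had 2 members of 125 bp with the nearest tissue-list peaks at 225 and 100 bp. Ier3, by contrast, an early response gene, had 225 bp across its start (called at 3.85e-07) and 400 bp at its 3′ end (1.50e-06), both 8.22 kb or more from tissue-list peaks. Atf4, a factor of the integrated stress response, had a 350 bp member whose nearest resident peak was 25 bp away. In the toll-like receptor and NF-kappaB pathway 14 of 42 had a member (33.3%, 21.0 to 48.4, against 15.9% of all genes), 9 of them alone (21.4%, against 7.48%). In lists of equal length the count was 3 of 42 (7.14%), close to the 7.54% of all genes. Rela, which encodes the p65 subunit, had 200 bp across its start (4.87e-06) and 100 bp at its 3′ end (7.89e-06), 39.9 kb or more from tissue-list peaks. Nfkb1, which encodes p105, the precursor of the partner subunit p50, had 2 members within 300 bp of tissue-list peaks. In the interferon response 6 of 35 genes had a member (17.1%, 8.10 to 32.7), a share near the 15.9% of all genes. They included the exonuclease gene Isg20, with 3. In lists of equal length the interferon count was again 6 of 35 (17.1%, against 7.54% of all genes), but only 3 genes were in both counts.

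Lysosomal, phagosomal and autophagy genes had the largest share of the 23 lists, though differences between lists were not tested. Members lay at 26 of 47 genes (55.3%, 41.2 to 68.6), against 15.9% of all genes, and alone at 15 (31.9%, against 7.48%). Regions of all 3 lists lay at 21 (44.7%, against 27.1%). With lists of equal length 14 of 47 genes still had one (29.8%, against 7.54% of all genes), and 13 of these 14 were among the 26. Ctsa, the gene of cathepsin A, had 3 members, of which the first, 150 bp across the start, was called at 7.44e-09 and lay 9.75 kb from any tissue-list peak. Map1lc3a, a gene for an LC3 protein of the autophagosome, had 2 of 175 bp (2.07e-07 and 1.69e-06), 39.7 kb or more from tissue-list peaks. The proton pump genes Atp6v0b, Atp6v0c and Atp6v0d2 had members alone, and Atp6v1a, Atp6v1d and Atp6v1h had them beside a tissue region. At Atp6v1a the member was at 1e-12, spanned 225 bp and lay 125 bp from a resident but 33.4 kb from a converted peak. Mcoln1, a lysosomal calcium channel gene, had 2 members across and before its start, 14.7 kb or more from tissue-list peaks.

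Of 49 genes for actin, adhesion and migration 21 had a member (42.9%, 30.0 to 56.7, against 15.9% of all genes), 9 of them alone (18.4%, against 7.48%). With lists of equal length 8 of 49 had one (16.3%, against 7.54% of all genes), and 6 of these 8 were among the 21. Arpc2 and Arpc3, subunits of the Arp2/3 complex that branches actin, had members across their starts (250 bp called at 1.85e-07, and 175 bp called at 6.91e-06). Elmo1, which activates Rac in phagocytosis, had 2. Of 39 genes for lipid uptake, storage and export 11 had a member (28.2%, 16.5 to 43.8), an interval that lies just above the 15.9% of all genes. In lists of equal length 3 of 39 had one (7.69%), close to the 7.54% of all genes. Nr1h3, which encodes the oxysterol receptor LXR-alpha, had one at each end, both called at 7.44e-09. That at the start was 19.5 kb from a resident peak, and that at the 3′ end 650 bp. Lpl, lipoprotein lipase, had 175 bp across one end at the same p-value, 57.5 kb from tissue-list peaks. In glycolysis 7 of 26 genes had a member (26.9%, 13.7 to 46.1, an interval that holds 15.9%), among them the lactate exporter gene Slc16a3 (7.44e-09) and Hif1a (2.07e-07), each alone. At equal list length 4 of 26 had one (15.4%, against 7.54% of all genes), all 4 of them among the 7. Chromatin regulators had members at 19 of 50 (38.0%, 25.9 to 51.8, against 15.9% of all genes) and at 10 of 50 with lists of equal length, 12 of the 19 beside only, as at Chd8 and Kmt2c.

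Cell cycle genes had members at 7 of 40 and regions of all 3 lists at 24, and unfolded protein and chaperone genes at 5 of 25 and 21. Housekeeping genes had members at 4 of 18, Gapdh, Gusb, Polr2a and Ppia, all beside a tissue region, and at 5 of 18 with lists of equal length. Among lists of other cells, dendritic cell genes had members at 5 of 18 (27.8%, 12.5 to 50.9), an interval that holds the 15.9% of all genes. The counts were 2 of 16 for neutrophils (Cebpe and Mmp8), 1 of 14 for B cells (Bach2), 1 of 20 for T and NK cells (Cd3d), 0 of 15 for eosinophils and mast cells, and 0 of 19 for mesothelium and stroma, of which Kdr had a region of all 3 lists. The intervals of these small lists all hold 15.9% too. Among single genes of interest without a member, Ccr2, Ly6c2, Csf1r, Timd4, Pparg and Cd36 had no region of any list at an end, Spi1 and Abca1 had one of the monocyte-derived and resident lists, and Gata6 had 3 called in tissue lists only.

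**Figure D4:**
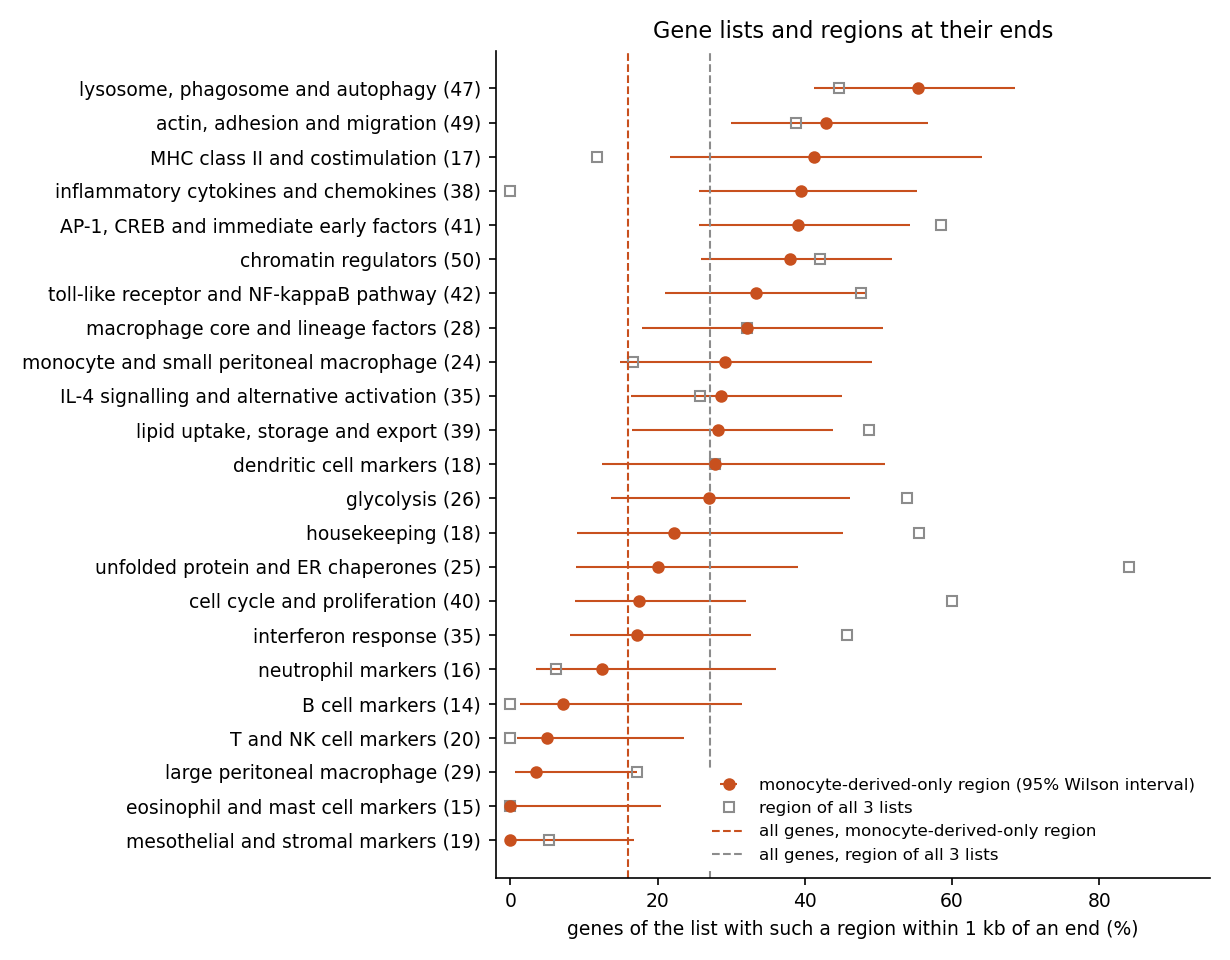
Share of genes (x axis, %) with a monocyte-derived-only region (filled circles, bars are 95% Wilson intervals) or a region of all 3 lists (open squares) within 1 kb of an end, for each of 23 gene lists with the number of genes found; dashed lines give the shares over all 21631 genes, 15.9% and 27.1%. Inflammatory mediators pair 39.5% with 0 genes of all 3 lists, whereas unfolded protein and ER chaperone genes had a member at 5 and a region of all 3 lists at 21 of 25 genes.

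Sequence at the promoters was described in RefSeq windows of 300 bp, 250 before and 50 after a transcription start. A window was taken to hold members only if it touched at least 1 member and no other region, which gave 1225 windows of 1126 genes. They were set against 4920 windows that touched regions of all 3 lists and 12313 that touched no region. Only 1318 members (37.1%) touched any window, 54.6% of members alone and 21.1% of members beside. A window can reach beyond its member, so base content and motif matches describe windows and not all members. The median G+C content was 60.0% in windows with members, 63.7% in windows of all 3 lists and 51.3% in windows with no region. A CpG ratio (observed over expected) of at least 0.6 was found in 78.9%, 85.8% and 23.8% of them in the same order, and the difference of the members' windows from those of all 3 lists was -6.96 points (-9.51 to -4.54).

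The 12 short motifs were searched on both strands, and a match is a description of letters, not of a bound factor. Spelled out, PU.1 was GAGGAAGT, and ETS was CCGGAAGT, which ends in the same letters. AP-1 was TGANTCA, C/EBP was TTGCNNAA, and IRF was GAAANNGAA. The STAT6 motif was the known palindrome with a spacer of 4 bases, written in capitals in the Clec7a sequence above. SP and KLF shared GGGCGG, and the E-box was CACGTG. NF-kappaB was GGGNNTTCC, and NRF1 was GCGCATGCG. The nuclear receptor motif was the site AGGTCA, and the GATA motif was AGATAA. Of the 12 differences between the members' windows and those of all 3 lists, 7 had intervals that did not reach 0. The ETS motif was in 13.4% of the members' windows, in 9.94% of windows of all 3 lists and in 5.20% of all 21045 windows, and the first 2 differed by 3.45 points (1.46 to 5.62). The E-box was in 13.1%, 10.5% and 7.91%, and the difference was 2.51 points (0.530 to 4.68). The NRF1 motif was in 6.04%, 4.11% and 2.37%. The SP and KLF motif ran the other way, with 60.1%, 76.3% and 46.7%, and a difference of -16.2 points (-19.2 to -13.2).

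Among motifs of inducible and lineage factors, AP-1 was in 6.04% of the members' windows, 3.72% of windows of all 3 lists and 7.04% of all windows. IRF was in 8.16%, 5.73% and 8.10%, and GATA in 7.51%, 3.72% and 9.68%. These 3 were more frequent in the members' windows than in those of all 3 lists, by 2.32 points (0.993 to 3.88) for AP-1, 2.43 (0.868 to 4.21) for IRF and 3.79 (2.33 to 5.48) for GATA. Shares over all windows are given as a description only, since 79.9% of protein-coding genes have a window. PU.1 (3.67%, 3.31% and 3.15%), C/EBP (8.24%, 6.89% and 10.3%), STAT6 (5.96%, 4.65% and 6.41%), NF-kappaB (7.43%, 8.35% and 6.35%) and the nuclear receptor site (11.7%, 10.0% and 14.6%) did not differ between members and all 3 lists beyond their intervals. Base composition differs between these window sets and its part in the differences was not tested.

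The ETS motif also differed between windows of the 2 kinds of members. It was in 14.9% of 1018 windows with members alone and in 5.80% of 207 windows with members beside a tissue region, a difference of 9.13 points (4.58 to 12.5). For the other 11 motifs this interval included 0. Windows can overlap, because a gene may have several starts, so the intervals are narrower than independent windows would give. A window of a member beside holds no tissue-list region itself. The sequences printed above, all of members alone and chosen after their values were seen, held 3 ETS matches within 95 bases at Nr1h2, the gene of LXR-beta, 1 at Arpc3 and 1 at Rps18, a ribosomal protein gene. The E-box is seen at the lysosomal genes shown, in 2 copies each at Atp6v0b and in the nearer member of Mcoln1. The inflammatory and myeloid genes shown held other motifs, except Lyz2, which held none. These were AP-1, GATA and STAT6 at Itgax, PU.1 at Spp1, and STAT6 at Clec7a, the gene of the beta-glucan receptor Dectin-1. Ptgs2 held C/EBP and the SP and KLF motif, which was also at Arpc2, and Trem2 held AP-1 and the nuclear receptor site.

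**Figure D5:**
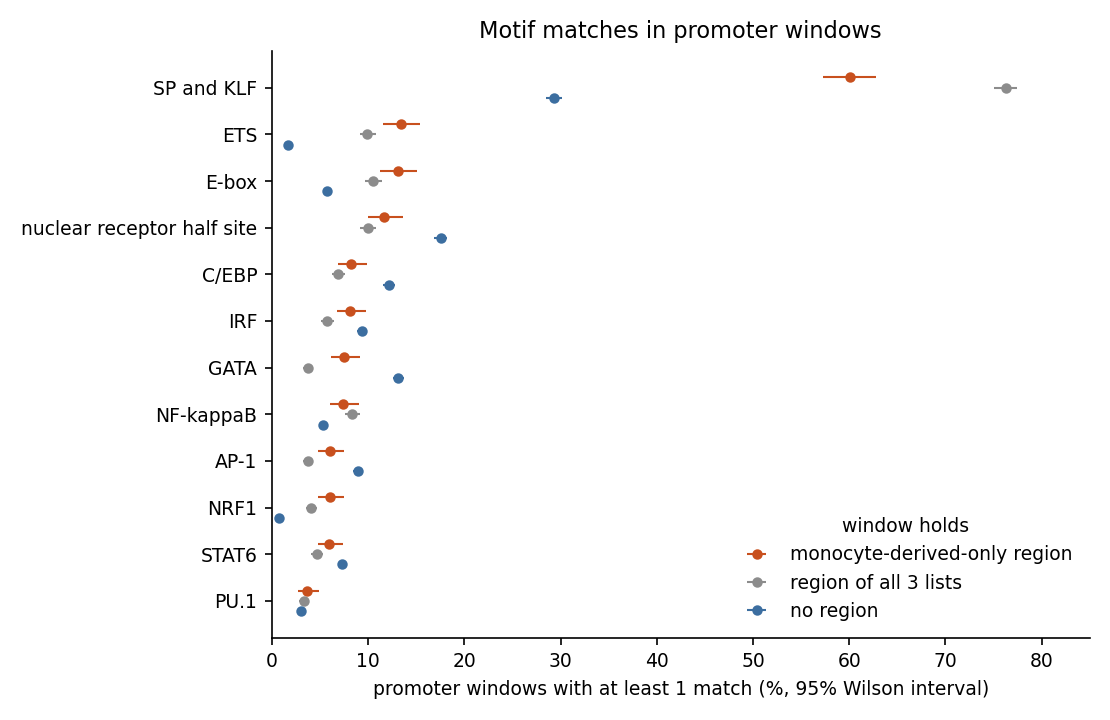
Share of promoter windows with at least 1 match (x axis, %, bars are 95% Wilson intervals) for each of 12 motifs, in windows with members only, windows of all 3 lists and windows with no region. ETS, E-box and NRF1 are highest in the members' windows, and SP and KLF are at 60.1% in the members' windows, below the 76.3% of windows of all 3 lists.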

How the data were processed

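Accessible chromatin was measured by ATAC-seq in 9 samples, 3 per group, and 1 merged peak list per group was used. Alignment used Bowtie2 2.2.9 and the mm10 build (GRCm38), according to the submitters' processing notes. How peaks were called and replicates merged, and whether reads were shifted or duplicates removed, was not stated in the sources used here; these steps can change which weak peaks a list holds. For each peak the authors deposited a p-value, with a floor of 1e-12, and edges on a 25 bp grid; no depth is known. RNA-seq was not analysed here.

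Peaks were merged and classified in Python 3.11.15 with numpy 2.4.6, pandas 2.3.3 and matplotlib 3.10.9, a method tested on simulated data. Gene ends and promoter windows came from RefSeq tables (GRCm38.p6). Strand was known for 17274 of 21631 genes (79.9%), and tests of position or promoter against classes under 80% coverage, such as resident-only regions, were void and are not given. Shares over all windows are descriptions. Exonic and intronic positions are not stated. Of 661 list genes 656 were found.

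The members and lists were chosen with earlier results of these data known. Named were the 20 members and the 10 isolated members of smallest p-value (ties to the wider), the 10 genes with most members, up to 3 genes per list with most members, and fixed genes; other list genes were named after their values were seen, and not every gene of the rule is reported. Alternatives were 4 p-value or length limits, 2 merging rules and 3 nearness rules.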

Additional observations from a re-analysis of the deposited data

How the results depend on the processing

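No paired analysis was possible because the columns carry no replicate numbers, 1 merged list standing for 3 samples, and for the same reason no sample could be left out in turn. Values are given in the order number of members, share of near-end regions, share near a start, share beside a tissue region, genes with a member, median width, median p-value, median G+C of windows and motifs whose interval against windows of all 3 lists misses 0, leaving out those that stayed within the main interval or within 1.5 times the main count. With p at most 1e-5 in every list the share was 29.3%, 49.2% were beside and the median p was 4.10e-06. With p at most 1e-10 there were 1463 members, 35.0%, 97.8% near a start, 13.9% beside, 1634 genes, 300 bp, 1e-12, 62.7% G+C and 4 motifs; only 34 of the 3548 members were among these. With the smallest 50% of p-values the share was 27.0%, 95.1% were near a start, 37.4% beside, with 175 bp, 1.51e-06 and 61.0% G+C. With lists of equal length there were 1489 members, 14.1%, 94.5% near a start, 45.4% beside, 1630 genes, 150 bp and 1.52e-06. With peaks within 200 bp merged there were 2107 members, 20.8%, 90.0% near a start, 29.5% beside, 2254 genes and 4.10e-06. Within 500 bp of a gene end the shares were 23.5%, 94.7% and 46%, and within 2.5 kb they were 28.8%, 89.6% and 55.2%. Requiring an overlap of 50% of the shorter peak, or the region's centre within 1 kb, moved none of the 9 results. In all 44 of 81 values were unchanged by this measure and 37 moved; the cause was not tested beyond what each limit removes by construction. Depth is unknown, so weak calls cannot be told from differences in sequencing, and the p-value limit decides the identity of most members.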

Other observations

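Ribosomal protein and complex I genes were among the gene families with many members. Of 83 cytosolic ribosomal protein genes 37 had a member (44.6%, 34.4 to 55.3, against 15.9% of all genes), 22 of them alone (26.5%, against 7.48%). A region of all 3 lists was at 30 (36.1%, against 27.1%). Of 37 genes for subunits of respiratory complex I 18 had a member (48.6%, 33.4 to 64.1, against 15.9%), 13 of them alone (35.1%, against 7.48%). With lists of equal length the counts were 21 of 83 and 9 of 37, against 7.54% of all genes. Mitochondrial ribosomal protein genes had members at 29 of 78 (37.2%, 27.3 to 48.3) and proteasome subunit genes at 13 of 39 (33.3%, 20.6 to 49.0), against 15.9% of all genes. C-type lectins, the receptors of sugars on myeloid cells, had members at 7 of 33 (21.2%, 10.7 to 37.8), an interval that holds 15.9%. In 6 of the 33 a member was alone (18.2%, against 7.48%), and 2 had a region of all 3 lists (6.06%, against 27.1%).

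Some families had few, against 15.9% of all genes. Members lay at 3 of 1106 olfactory receptor genes (0.271%), 3 of 92 potassium channel genes (Kcna3, Kcnj2 and Kcnab2), 1 of 49 keratin genes, 1 of 39 Hox genes and 0 of 44 collagen genes. Solute carriers, at 61 of 364 (16.8%), were near that share.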
